A study of Danio rerio with 4 samples.

Results

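The genes described here are 43 zebrafish genes of DNA damage sensing and repair, chosen by name to cover the main repair routes. Of these, 33 carried a probe on the array whose transcript identifier matched their name, and 32 of the 33 stood above background well enough to be tested, out of 24329 genes tested in all. The remaining 10 (atm, atr, rad50, mre11a, xrcc2, prkdc, pms2, mutyh, fen1 and parp2) had no probe whose transcript identifier matched their name. Probes were named by transcript identifier alone, so these genes may be on the array under identifiers that went unnamed. They were not analysed here as repair genes. The gene listed as ung is named unga in the current gene table.

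Whole testes of zebrafish aged 4 months were profiled on 1-colour arrays. Control fish lived for 6 weeks at 0 µg/L and treated fish for the same time at 20 µg/L of microcystin-LR (MCLR), a toxin made by cyanobacteria that inhibits the phosphatases PP1 and PP2A. Each group had 2 arrays of total RNA; strain and the number of fish behind a sample are not given in the sources used here. The study's design text speaks of independent experiments, but nothing says that the arrays came from separate fish or tanks, so p-values measure only the spread between these samples, which may be technical.

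DNA repair is a set of parallel routes that share sensors. Breaks through both strands are marked by phosphorylated histone H2ax and signalled by the kinases Atm and Atr to the checkpoint kinases, then closed by homologous recombination or by end joining. Damaged or mispaired bases are removed by base excision, nucleotide excision or mismatch repair, and the Fanconi anaemia pathway deals with cross-links between strands. The testis uses these routes heavily, since spermatogonia copy their DNA in many rounds and spermatocytes cut and rejoin it during meiosis. PP2A is among the enzymes that remove the phosphate from H2ax, but an array reads RNA and not phosphorylation.

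A single slide carried all 4 arrays, with MCLR at positions 1 and 2 and controls at 3 and 4, so the effects of position and exposure cannot be told apart. On each array 81.9% to 88.2% of 43803 zebrafish spots were well above background, with 0 saturated. All 37 tested markers of germ, Sertoli and Leydig cells were well above background on the 4 arrays, but so were 22370 of all 24329 genes tested and 18 of 18 pancreas markers, so detection alone does not tell the testis from other tissues. The control arrays carried signals of other tissues. Of 18 tested pancreas markers, 18 were highest on control replicate 2, where their summed level was 351.2 against 15.3 to 19.3 on the other arrays, and of 10 tested brain markers 9 were highest on control replicate 1, with a summed level of 48.7 against 8.04 to 13.0. The 10 tested immune markers summed to 10.9 and 10.1 in the controls and to 12.3 and 17.8 after MCLR. Their part in the values below was not tested.

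No measured repair transcript passed the test for a difference between MCLR and control testes. For 26 of the 32 tested the 95% interval lay within a 2-fold difference, against 55.9% of all genes tested. That share was larger among brighter genes, where most repair genes lay. With limma, adjusted over all genes, 0 of the 32 repair genes passed the threshold of 0.05, as did 0 of all 24329 genes (0% called higher and 0% lower). At an unadjusted p under 0.05 there was 1 repair gene higher in MCLR, msh3, against 8.67% of all genes (2110 genes), and 0 lower, against 0.53% (129 genes). Of the 32 genes, 15 had a positive and 17 a negative log2 fold change (MCLR minus control), against 61.4% positive among all genes. Their median was -0.03, beside 0.08 for all genes tested. The repair genes all carry names, so the 12496 named genes tested are a closer comparison. Of these, 7024 were positive, with a median of 0.04. By limma, 664 of them were higher and 52 lower at an unadjusted p under 0.05.

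The size of the repair genes' values can be set against the replicates. The median size of the 32 log2 fold changes was 0.17, smaller than the median gap of 0.29 between the control arrays and of 0.22 between the MCLR arrays. In 28 of the 32 genes the fold change was smaller than the larger of its own replicate gaps. The other 4 were msh3, apex1, lig1 and ercc1. Means of 2 arrays vary less than single arrays, so values below such gaps are the usual outcome without any effect. The share over all genes was not counted, so these comparisons show nothing particular to repair genes. The 95% intervals of 26 genes (81.2%) lay wholly within a 2-fold difference in either direction, against 55.9% of all genes tested. Of the 12496 named genes tested, 8076 had such intervals. This share was larger among brighter genes, where most repair genes lay, and is given by level further below. The intervals that reached 2-fold were those of chek1, xrcc4, msh3, xpc, xpa and fancd2, so for these 6 a 2-fold difference is within the error of 2 arrays per group.

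**Figure D1:**
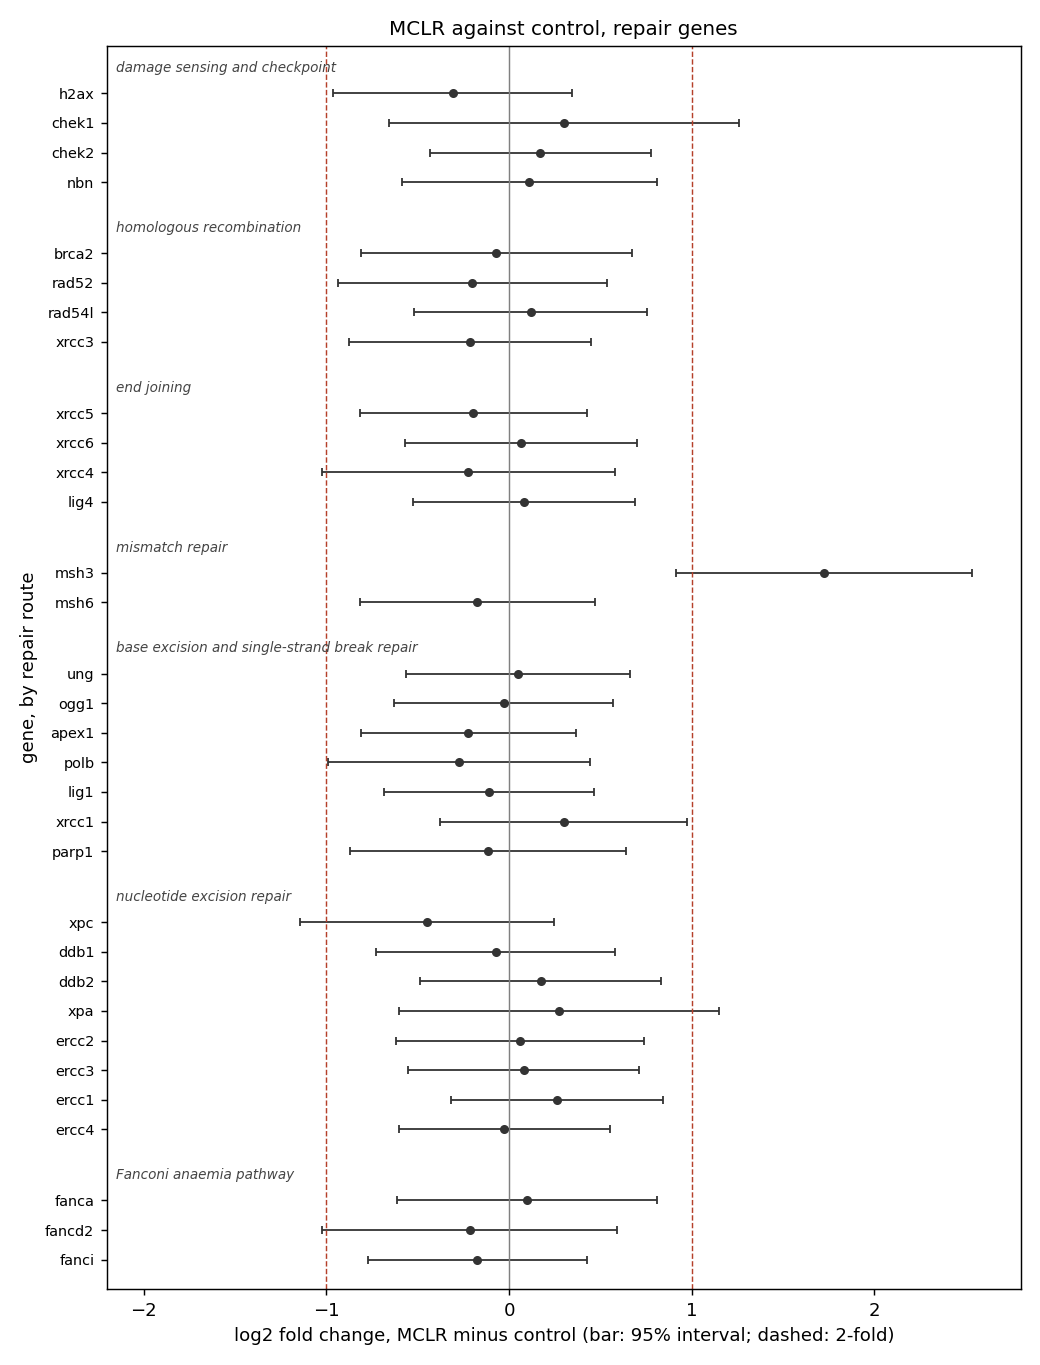
Log2 fold change (x axis, MCLR minus control) of the 32 tested repair genes by route, as points with 95% intervals from limma; dashed lines mark a 2-fold difference. The intervals of 26 genes lie between the dashed lines, and 31 of 32 points lie between -0.45 and 0.30, with msh3 alone at 1.73.

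Levels are given throughout on a log2 scale relative to the 75th percentile of each array's signal, and they serve only to compare the same probe between arrays. Among the damage sensors, h2ax, the histone variant that marks breaks, had control levels of 1.92 and 2.04 and MCLR levels of 1.47 and 1.87. Both MCLR arrays thus lay below both controls, with MCLR replicate 1 the lowest. The log2 fold change came to -0.31 ± 0.26 (SE from the limma fit, n = 2 per group, adjusted p = 0.947). A related gene named h2ax1 gave almost the same pattern, with 6.10 and 6.21 for the controls against 5.67 and 6.02 for MCLR and a log2 fold change of -0.31 ± 0.26. Whether each probe binds its own transcript alone was not tested, so the pair may not be separate readings.

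The checkpoint kinases did not share that sign. The level of chek1, the kinase downstream of Atr, was -1.44 and -2.21 for the controls against -1.20 and -1.86 for MCLR, giving 0.30 ± 0.38 (adjusted p = 0.999). Within each group its replicate 1 was higher by more than the groups differed. For chek2, the kinase downstream of Atm, the levels were 1.93 and 2.18 against 2.21 and 2.24 (0.17 ± 0.24), so the MCLR arrays lay above the controls by a margin smaller than the gap between the controls. Among the members of the Mre11-Rad50-Nbn complex, which holds broken ends and recruits Atm, nbn alone was measured. It stood at 0.59 and 1.09 against 0.86 and 1.04, a log2 fold change of 0.11 ± 0.28, with the MCLR values inside the control range. In tissue RNA, fewer cells of a type and less RNA per cell cannot be told apart, which holds for every value here.

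In homologous recombination, 4 of 5 listed genes were measured and the groups overlapped in each of them. Levels of brca2, a tumour suppressor gene whose product acts early in strand exchange, were 2.05 and 2.55 for the controls against 2.04 and 2.41 for MCLR (-0.07 ± 0.30, adjusted p = 0.999). The annealing gene rad52 had -0.57 and -0.76 against -0.58 and -1.16 (-0.20 ± 0.29, adjusted p = 0.999), its low value resting on MCLR replicate 2. The other 2 took opposite signs. For xrcc3, whose product acts in the same route, the values were 0.49 and 0.13 against -0.03 and 0.22 (-0.21 ± 0.27), and for rad54l, a DNA motor of strand exchange, -0.05 and -0.41 against -0.12 and -0.11 (0.12 ± 0.25).

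End joining rests on the Ku pair that caps broken ends, and its subunit genes had opposite signs. The Ku80 gene xrcc5 had levels of 2.67 and 2.83 for the controls against 2.42 and 2.69 for MCLR, a difference of -0.19 ± 0.25 (adjusted p = 0.999). The Ku70 gene xrcc6 stood at 2.82 and 2.66 against 2.65 and 2.96, or 0.06 ± 0.25. Both differences were within the range of the replicates. The ligation step is served by lig4, a DNA ligase, and its partner xrcc4. Levels of lig4 were -1.29 and -1.04 against -1.13 and -1.04 (0.08 ± 0.24), and those of xrcc4 were 1.15 and 1.61 against 0.87 and 1.46 (-0.22 ± 0.32). In each group xrcc4 was higher on replicate 2, by 0.46 in the controls and 0.59 in MCLR, more than the difference between the groups.

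Mismatch repair held the single gene with a fitted difference over 2-fold, msh3, and it was among the dimmest. It encodes a partner in the complex that recognizes inserted or deleted loops. Its levels were -6.05 and -6.09 for the controls against -3.96 and -4.72 for MCLR, a log2 fold change of 1.73 ± 0.32 (limma, unadjusted p = 0.00231, adjusted p = 0.159). Its signals of 5.94 and 4.57 on the control arrays did not stand well above background, while those of 19.3 and 15.1 on the MCLR arrays did. Set against the dimmest signal that counted as well above background on each control array, msh3 was 2.63-fold higher in MCLR with the main scaling. This ratio was not tested, and it is not a lower limit, since other processing gave smaller fold changes. Because the filter selected the gene by this very contrast, the ratio restates the filter and is no support for a difference.

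That pattern was common on these arrays. The gene passed through its MCLR arrays alone and so had to differ. Of all genes tested, 709 (2.91%) stood well above background on both MCLR arrays and on no control array, with a median log2 fold change of 1.86, and 414 of them were at or above the value of msh3. The reverse pattern was met by 72 genes (0.296%). The value also depended on the processing. With quantile normalization the log2 fold change of msh3 was 1.07 (limma, unadjusted p = 0.00937, adjusted p = 0.607). With the deposited values it was 1.21 (limma, unadjusted p = 0.00709, adjusted p = 0.695). It was 0.22 (limma, unadjusted p = 0.109) with a background correction that adds an offset of 50 followed by quantile normalization. That offset exceeds every msh3 signal given above, so it shrinks the value by construction, whatever the difference. Each of these fold changes lay below the ratio to the dimmest control signals given above, which is 1.39 on the log2 scale. The other mismatch gene measured, msh6, had levels of 5.74 and 5.45 for the controls against 5.29 and 5.54 for MCLR, with overlapping groups (-0.17 ± 0.26, adjusted p = 0.999). It encodes a partner in the complex that recognizes single mispaired bases.

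**Figure D2:**
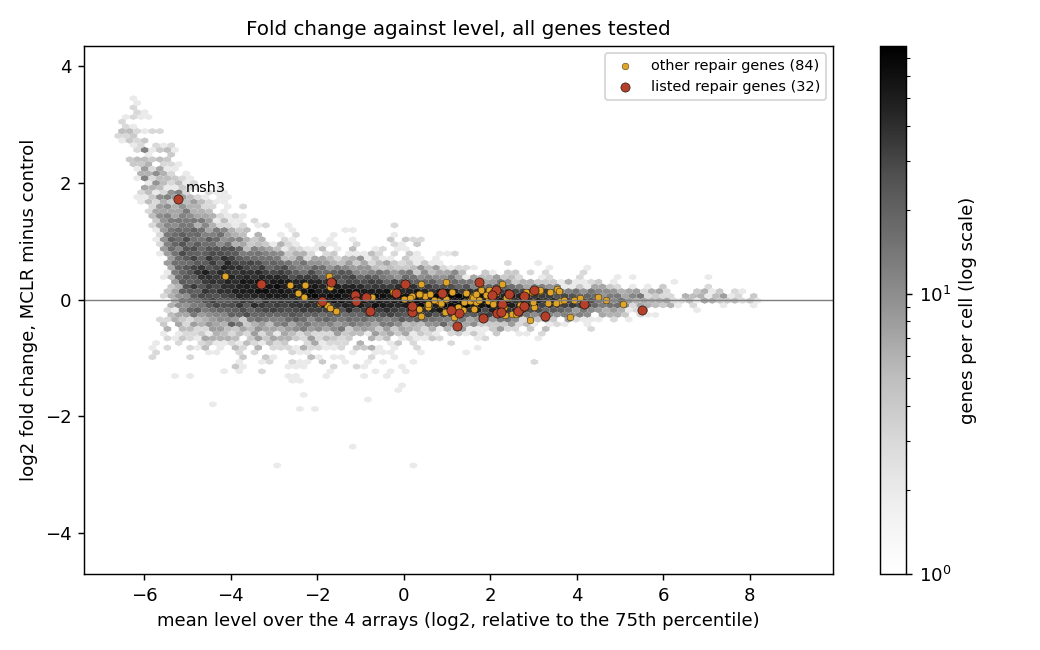
Log2 fold change (y axis, MCLR minus control) against mean level over the 4 arrays (x axis, log2 relative to the 75th percentile) for all 24329 genes tested, shaded by the number of genes per cell on a log scale, with the 32 listed and 84 other repair genes as points. Genes at the dim left end tilt upward, and msh3 lies there, while the brighter repair genes lie along 0.

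The tilt of dim genes bears on how the other repair genes compare with the rest. Split at a mean level of 0, a threshold chosen after the data were seen, 8207 of all genes lay above it, with a median log2 fold change of -0.02 and 45.8% of values positive. The 23 repair genes above it had a median of -0.11 and 39.1% positive. At or below that level the 16122 genes had a median of 0.18, and the 9 repair genes 0.08. Intervals within a 2-fold difference were found for 87.0% of the repair genes above that level, against 82.2% of all genes there. At or below it the shares were 66.7% and 42.5%. Without msh3, the median of the other 31 repair genes was -0.03.

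Base excision repair starts with glycosylases that cut out a damaged base. The uracil glycosylase gene ung had levels of -0.75 and -1.03 for the controls against -0.87 and -0.82 for MCLR (0.05 ± 0.25, adjusted p = 0.999). The gene ogg1, whose product removes oxidized guanine, stood at -1.76 and -1.99 against -1.91 and -1.90 (-0.03 ± 0.24, adjusted p = 0.999). In both genes the MCLR values lay between the controls. Their 95% intervals ran from -0.57 to 0.66 for ung and from -0.63 to 0.57 for ogg1.

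Of the steps after base removal, apex1, polb and lig1 had negative values, as did 4445 of all 8207 genes above a mean level of 0. For apex1, the endonuclease that cuts at the empty site, the levels were 2.32 and 2.20 against 2.10 and 1.98 (-0.22 ± 0.24, adjusted p = 0.992), so that both MCLR arrays lay below both controls. For polb, the gap-filling polymerase, they were 3.18 and 3.61 against 2.93 and 3.31 (-0.28 ± 0.29), with overlap. Levels of lig1, the ligase of DNA copying and of long repair patches, were 2.84 and 2.84 for the controls against 2.73 and 2.74 for MCLR. With replicates this close, a difference of -0.11 ± 0.23 separated the groups but did not pass the test (adjusted p = 0.999), since the fit lends the gene part of the spread of all genes.

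Single-strand breaks are sensed by Parp1 and repaired on the scaffold Xrcc1. The level of parp1 was 0.58 and -0.06 for the controls against 0.09 and 0.20 for MCLR, so the MCLR arrays lay between controls that differed by 0.65 (-0.12 ± 0.30, adjusted p = 0.999). The level of xrcc1 was 1.82 and 1.36 against 1.83 and 1.95 (0.30 ± 0.27, adjusted p = 0.964). Its MCLR arrays lay above both controls, but control replicate 1 lay just under MCLR replicate 1. The partner ligase gene lig3 was not tested, because its probe stood well above background on MCLR replicate 2 alone.

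In nucleotide excision repair, 8 of 8 listed genes were tested, 5 of positive and 3 of negative sign. Further genes of this route, ercc5 and ercc6 among them, had no probe with a matching identifier. Among the lesion finders, xpc had the largest negative value of the 32 genes. It stood at 1.37 and 1.55 for the controls against 1.25 and 0.77 for MCLR, a log2 fold change of -0.45 ± 0.28 (limma, unadjusted p = 0.162, adjusted p = 0.831). The groups did not overlap, but a second probe of xpc read 0.84 and 0.94 against 0.93 and 0.92, a difference of 0.04.

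The genes of the ultraviolet damage sensor, a pair of subunits that hand lesions to Xpc, stayed within their replicate spread. For ddb2 the levels were 2.72 and 3.15 against 3.07 and 3.14 (0.17 ± 0.27, adjusted p = 0.999), and for ddb1 4.00 and 4.40 against 4.07 and 4.18 (-0.07 ± 0.26). The lesion-checking gene xpa ranged more widely between the controls, at -3.87 and -3.02, than between the groups, with -3.06 and -3.28 in MCLR (0.27 ± 0.35, adjusted p = 0.999).

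The later steps open the DNA and cut out the damaged strand. The helicase genes of the transcription factor TFIIH, which unwind it around a lesion, had levels of 1.85 and 2.18 against 1.90 and 2.25 for ercc2 (0.06 ± 0.27) and of 1.97 and 2.02 against 1.90 and 2.25 for ercc3 (0.08 ± 0.25). The nuclease gene ercc4 stood at -1.12 and -1.06 against -1.15 and -1.08 (-0.03 ± 0.23, adjusted p = 0.999). Its partner ercc1 stood at -0.05 and -0.14 against 0.14 and 0.19, with both MCLR arrays above both controls and a difference larger than the replicate gaps (0.26 ± 0.23, adjusted p = 0.960). The subunits of this nuclease thus differed in pattern, though neither passed the test and the difference between them was not tested.

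The Fanconi anaemia genes were each highest on control replicate 2. For fanca, of the core complex, the levels were 2.13 and 2.64 for the controls against 2.60 and 2.37 for MCLR (0.10 ± 0.28, adjusted p = 0.999). The clamp genes, whose products are ubiquitinated together at a cross-link, had negative values. Levels of fancd2 were 2.07 and 2.63 against 2.38 and 1.89 (-0.21 ± 0.32, adjusted p = 0.999), with overlap. Those of fanci were 1.09 and 1.28 against 1.06 and 0.97 (-0.17 ± 0.24, adjusted p = 0.999), where the groups did not overlap. The dimmer probes of fanci gave log2 fold changes of 0.47 and 0.03.

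**Figure D3:**
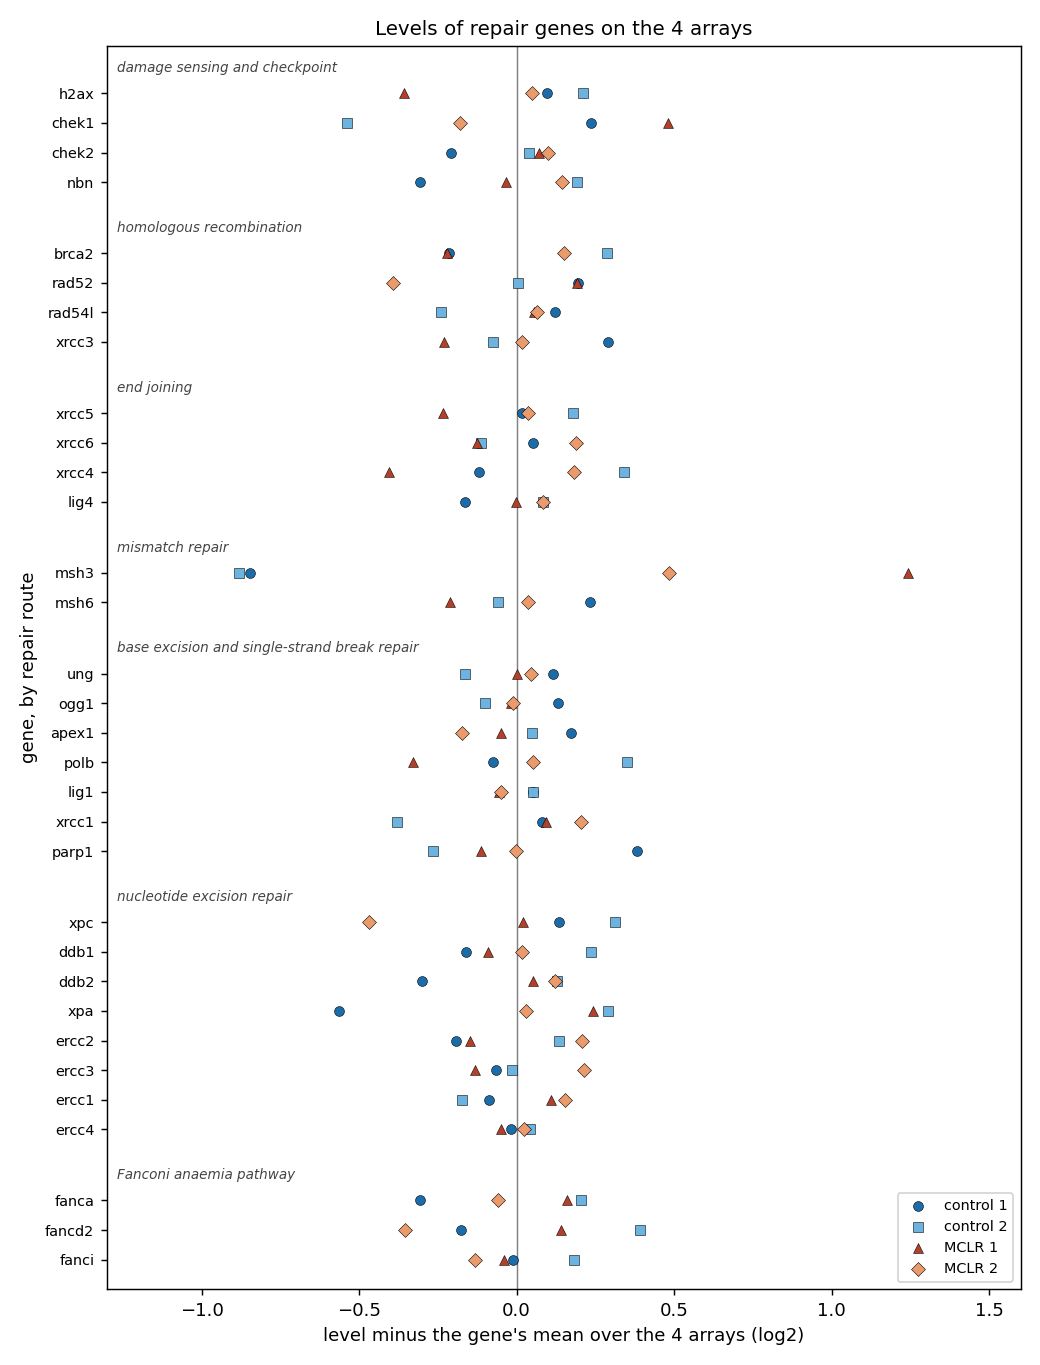
Level of each tested repair gene on each array (x axis) minus that gene's mean over the 4 arrays, on a log2 scale, by route; blue marks are control arrays and red marks MCLR arrays. Colours are mixed in most rows, and msh3 is the row where they lie farthest apart.

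Across the 32 genes, both MCLR arrays lay above both controls in 4 (chek2, msh3, xrcc1 and ercc1; 12.5%), against 25.3% of all genes. They lay below both controls in 5 (h2ax, apex1, lig1, xpc and fanci, or 15.6%), against 9.08% of all genes. The groups overlapped in the other 23. These counts use the brightest probe of each gene. Dimmer probes of apex1, xpc and fanci included positive values, and the groups overlapped in a dimmer probe of xrcc1 and of lig1. Of the 12496 named genes tested, 2402 had both MCLR arrays above both controls and 1331 had both below. Leaving out control replicate 1 called 173 of all genes higher and 41 lower, and leaving out control replicate 2 called 238 and 84, with 0 repair genes among them in either case. The highest value fell on control replicate 2 in 14 genes, on control replicate 1 in 9, on MCLR replicate 2 in 7 and on MCLR replicate 1 in 2. Over all genes the order differed, with 5771, 4345, 6244 and 7969 of 24329 genes highest on these arrays in turn. Among the 12496 named genes the counts were 3615, 2332, 3615 and 2934, with control replicate 2 level with MCLR replicate 2.

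Several genes could be read by more than 1 probe. Of the 32, 17 had several probes above background, and in 7 of these (brca2, xrcc3, xrcc4, apex1, xpc, ddb1 and fanci) the probes gave opposite signs. In all 7 the brightest probe was negative and the positive probes were dimmer than it, and dim genes tilted upward among all genes. Whether dimness accounts for the opposite signs was not tested. The widest range was that of ddb1, whose 5 probes ran from -0.63 to 0.82, while its brightest gave -0.07. The 0.82 came from its dimmest probe, with levels of -5.08 and -5.00 for the controls against -3.63 and -4.81 for MCLR. The median range between probes of a gene was 0.35, larger than the median size of the fold changes. Probes of xrcc1 (0.27 and 0.30), nbn (0.11 and 0.16), ddb2 (0.17 and 0.25), ung (0.05 and 0.12), fancd2 (-0.21 and -0.09) and the 3 of lig1 (-0.42 to -0.11) each kept 1 sign. So did those of ercc2 (0.06 to 0.66), fanca (0.10 to 0.65), ercc3 (0.08 and 0.415) and xrcc6 (0.06 to 0.39), over wider ranges. In each of these wider cases the brightest probe gave the lowest value. The 4 probes of apex1 gave -0.30, -0.22, 0.16 and 0.27, so the separation seen with its brightest probe was not shared by all.

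**Figure D4:**
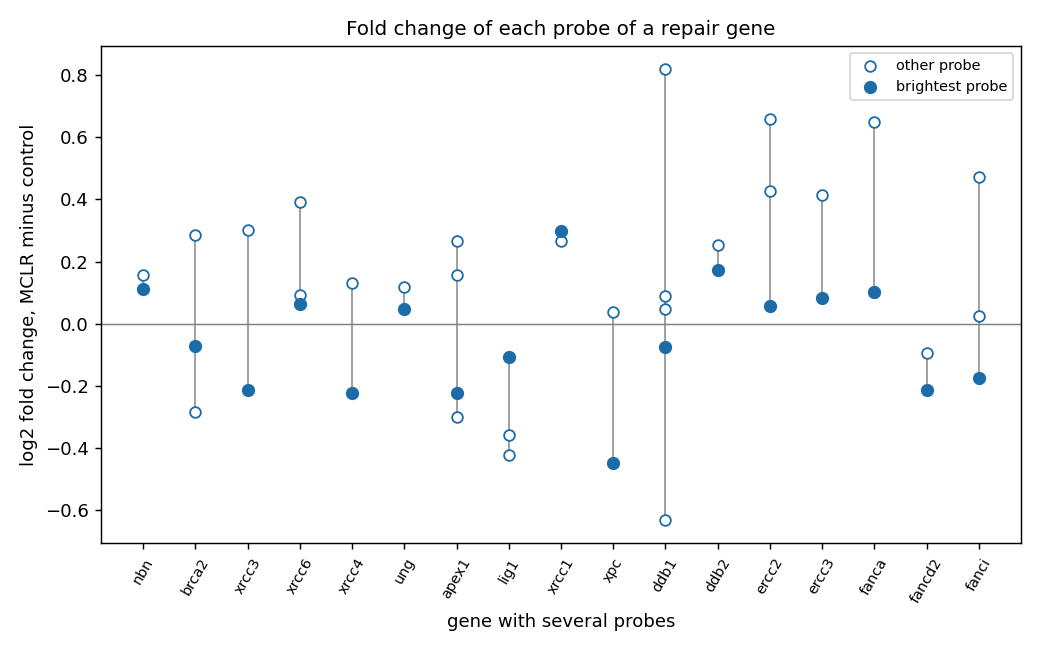
Log2 fold change (y axis, MCLR minus control) of each probe above background for the 17 repair genes with several probes (x axis); filled circles are the probe with the highest mean level, used in the test, and open circles the others. The probes of 7 genes lie on both sides of 0, the brightest below it in each. The widest range is that of ddb1, from -0.63 to 0.82, the latter from its dimmest probe.

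Other genes of these pathways were read in the same way. Of 122 further genes of these routes and of translesion synthesis and direct reversal, 84 were tested. They had 45 positive and 39 negative values and a median of 0.01, against 61.4% positive and a median of 0.08 among all genes. Of the 12496 named genes tested, 7024 were positive, with a median of 0.04. All 84 stood well above background on the 4 arrays, which not all genes tested did. With limma, 0 passed the adjusted threshold and 0 had an unadjusted p under 0.05. At that p, 8.67% of all genes were higher and 0.53% lower, and of the 12496 named genes 664 were higher and 52 lower. Values of the 84 ran from -0.35 to 0.41. The smallest adjusted p was 0.808, for alkbh2, which reverses alkylated bases; its levels were -1.81 and -2.04 for the controls against -1.50 and -1.54 for MCLR (0.40 ± 0.24). Next came dclre1c, the Artemis nuclease of end joining, at 3.11 and 3.09 against 2.71 and 2.79 (-0.35 ± 0.23, adjusted p = 0.858). In both genes the groups did not overlap. Both MCLR arrays lay above both controls in 5 of the 84 and below in 8, against 2402 and 1331 of the 12496 named genes. The remaining 6 genes with the smallest p were ercc8 of transcription-coupled repair (-0.29), faap24 of the Fanconi core (0.27), tdp2b (-0.28), the polymerase subunit gene pold3 (-0.26), the glycosylase gene tdg.1 (0.41) and fancc of the Fanconi core (0.26).

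By route, the further Fanconi genes were positive in 10 of 12 cases (median 0.11), whereas 2 of the 3 listed Fanconi genes were negative. Over all genes 61.4% of values were positive, with 45.8% above a mean level of 0 and 69.3% at or below it. Differences between routes were not tested. Positive values numbered 8 of 11 in translesion synthesis and direct reversal (median 0.04), 6 of 10 in nucleotide excision (0.04), 6 of 13 in mismatch repair (-0.02), 5 of 12 in damage sensing (-0.03), 5 of 12 in homologous recombination (-0.06), 3 of 8 in base excision (-0.13) and 2 of 6 in end joining (-0.10). Many repair genes are most active in cells that copy their DNA, so markers of dividing cells are set beside them. The 13 tested markers had a summed level of 182.1 and 191.4 for the controls against 167.8 and 193.5 for MCLR. Their median log2 fold change was -0.06, with 10 of 13 negative. Of all 8207 genes above a mean level of 0, 4445 were negative. The 6 meiotic markers had summed levels of 170.6 and 188.4 against 170.2 and 176.1, with a median of -0.09. In each list the ranges of the groups overlapped, as did those of the repair genes themselves, at 158.2 and 165.8 against 143.5 and 159.8. Such sums add levels on a linear scale, so bright genes weigh most. Of the repair sums, the mismatch route, almost all msh6, gave 53.4 and 43.6 against 39.3 and 46.7.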

How the data were processed

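Total RNA from 2 control and 2 MCLR testis samples was measured on 1-colour Agilent arrays with Cy3 label. Per the file headers, the authors' scanner files come from Agilent Feature Extraction 11.0.1.1 and hold a processed signal (an intensity on a linear scale, with background removed and spatial trends flattened), raw intensity values and 0 or 1 marks per spot. A deposited table of log2 values, normalized by a tool not given in the sources used here, served as an alternative. Arrays have no read depth; the number of arrays limits the precision.

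Each processed signal was divided by its array's 75th percentile and put on a log2 scale. Repeat spots were averaged, and 60 probes marked as outliers were dropped. RefSeq transcripts in the gene table of assembly GRCz12tu named 59.6% of 43603 probes; the rest were tested under their own names. That build differs from the array's, so no positions are given, and no sequences were at hand. Probes well above background on both arrays of a group were kept, and the kept probe with the highest mean stood for its gene. Groups were compared with limma 3.58.1 in R 4.3.3 (group only, eBayes, two-sided, Benjamini-Hochberg over all genes), with 2 residual and 3.52 prior degrees of freedom. The fit was tested on simulated data. Lists, members and the naming rule (all 43 members; up to 8 further repair genes with the smallest p) were chosen with earlier results of these data known. The alternatives were other normalizations, background correction, filters, probe summaries, priors, a replicate block and leaving out each array. Python 3.11.15 with pandas 2.3.3 and matplotlib 3.10.9 made tables and plots.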

Additional observations from a re-analysis of the deposited data

How the results depend on the processing

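In all 13 alternatives run, 0 repair genes passed the adjusted threshold, the smallest adjusted p being 0.0771 for msh3 with median scaling; msh3 was not tested when every array had to stand above background. The single repair gene at an unadjusted p under 0.05, msh3, became 0 under that filter and with an offset background correction plus quantile normalization, which change together. The filter removes msh3 and the offset shrinks its value by construction, so neither is a test of it. Over all genes, median scaling called 208 higher and 6 lower, and the trended and robust prior 2 lower; leaving out 1 array gave 0 to 238 higher and 0 to 84 lower, where the lone array is taken to vary as the other group did. The median log2 fold change of the repair genes was 0.0052 with that combined setting, beside 0.0116 for all genes tested. It was 0.066 when all probes of a gene were averaged, beside 0.1215 for all genes. When 1 array was left out it ran from -0.080 to 0.0006, beside 0.043 to 0.14 for all genes. The cause was not tested.

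The sign held in 10 genes under every alternative in which they were tested (h2ax, chek2, xrcc5, msh3, msh6, apex1, polb, xrcc1, xpc and ercc1). Not every alternative could turn a sign, since the replicate block, the other prior and the filter settings left these fold changes unchanged. Averaging probes could not turn h2ax, chek2, xrcc5, msh3, msh6, polb or ercc1, which had 1 kept probe each. Leaving out 1 array could not turn h2ax, chek2, msh3, apex1, xrcc1, xpc or ercc1, whose groups did not overlap. The shift of median scaling, given below, could turn none of the 10, whose values were negative or larger than it. A held sign was thus largely fixed in advance. For msh3 a held sign is no support, since the gene passed the filter through its MCLR arrays alone. It was not tested under the filter that required every array. These 10 still moved when 1 array was left out: h2ax -0.51 to -0.11, chek2 0.045 to 0.29, xrcc5 -0.33 to -0.060, msh3 1.35 to 2.10, msh6 -0.32 to -0.028, apex1 -0.28 to -0.16, polb -0.49 to -0.063, xrcc1 0.068 to 0.53, xpc -0.69 to -0.21 and ercc1 0.22 to 0.31. The sign turned with the combined setting for brca2 (0.0079) and lig1 (0.0052), which quantile normalization alone left at -0.027 and -0.060. Median scaling shifted every value by the same amount, -0.0959. By construction this turned xrcc6 (-0.032), lig4 (-0.014), ung (-0.048), ercc2 (-0.0375) and ercc3 (-0.0145). Averaging probes turned xrcc3 (0.044), ddb1 (0.050) and fanci (0.11), each of which had dimmer probes of positive sign. Leaving out 1 array gave ranges across 0 for chek1 (-0.086 to 0.69), nbn (-0.14 to 0.36), brca2 (-0.32 to 0.18), rad52 (-0.49 to 0.090), rad54l (-0.062 to 0.30), xrcc6 (-0.094 to 0.22), xrcc4 (-0.52 to 0.072), lig4 (-0.042 to 0.21), ung (-0.092 to 0.19), ogg1 (-0.15 to 0.087), parp1 (-0.44 to 0.21), ddb1 (-0.27 to 0.13), ddb2 (-0.042 to 0.39), xpa (-0.15 to 0.70), ercc2 (-0.12 to 0.24), ercc3 (-0.0915 to 0.25), ercc4 (-0.061 to 0.010), fanca (-0.16 to 0.36) and fancd2 (-0.50 to 0.070).

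The design text puts both groups in each experiment, but no label ties an array to an experiment, so whether same-numbered arrays are pairs is unknown and the numbers were not used as pairs. Their deviations correlated at 0.19 over 24329 genes, and with the replicate number as a block 0 repair genes and 0 genes in all passed the adjusted threshold, while 2411 genes against 2239 had an unadjusted p under 0.05. Signal over background limits msh3 and lig3 most.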
